A study of Rattus norvegicus with 21 samples.

Results

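The comparison asked which liver transcripts differ between all rats given tert-butylphenyl diphenyl phosphate (BPDP), whatever the dose, and rats given the vehicle. BPDP belongs to the triaryl phosphates, esters that slow burning and soften plastics. The dosed arm holds every array with a dose above 0, which is 15 of the 21 arrays, and the vehicle arm holds the other 6. All animals were male Harlan Sprague-Dawley rats, received 4 daily gavage doses in corn oil and were killed on day 5, when pieces of the left liver lobe were frozen. The dosed arm has 3 arrays each at 64.6, 129.2, 258.1, 516.2 and 1032.5 mg/kg, and the vehicle arm received corn oil alone. Neither the age of the rats nor the hour of liver collection is given in the sources used here.

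Several features of the design bound what follows. The series lists 6 vehicle arrays although its protocol counts 5 vehicle rats. The labels number the arrays as replicates without saying that each is a separate animal, so a p-value measures the spread between these arrays. There is 1 vehicle group, and the 5 dose comparisons share it. Anything else that set those 6 arrays apart and the dosing itself cannot be told apart.

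Signals are log2 values from an Affymetrix rat array, where a difference of 1 is a doubling, and levels of different genes are not comparable because each probe set has its own affinity. Array medians averaged 6.37 ± 0.02 (SD, n = 6) in the vehicle arm and 6.35 ± 0.03 (SD, n = 15) in the dosed arm, a difference of -0.02 (exact permutation test over 54264 splits, two-sided, p = 0.180). The processing notes name RMA, which usually evens out arrays, so these medians cannot show a shift of all genes together. RNA integrity was read from the Gapdh and beta-actin controls, whose signal at the 5' end minus that at the 3' end averaged -1.95 ± 0.29 (SD, n = 6) and -1.92 ± 0.54 (SD, n = 15), with an exact permutation p of 0.894. Any pair of arrays correlated at 0.984 to 0.995 over the probe sets, which do not count as replicates, and no 2 arrays were identical. Hepatocyte markers were bright in both arms, with albumin (Alb) at a mean of 15.34 in each.

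Liver cells keep circadian time through a loop of transcription factors. BMAL1 pairs with CLOCK or NPAS2 and activates genes through E-boxes, among them the period and cryptochrome genes, the REV-ERB nuclear receptors (Nr1d1 and Nr1d2) and Dbp. PER and CRY proteins inhibit that activation, and the REV-ERB proteins repress Bmal1, Npas2 and Nfil3. DBP, TEF and HLF then activate output genes through D-boxes, which NFIL3 represses. Foreign chemicals engage other systems in hepatocytes: the receptors CAR and PXR, and the oxidant-sensing factor Nrf2, which acts through antioxidant response elements and raises glutathione synthesis, aldo-keto reductases and conjugating enzymes.

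The promoters of 5 genes that were called at every dose are shown because they carry letters that these factors are known to read. Each is the 250 bases upstream of the start site in RefSeq, assembly GRCr8, 5' to 3' on the gene's strand, with the motif in capitals. In Tef (chr7:115206577-115206826, plus strand) and Klf15 (chr4:124522765-124523014, plus strand) the capitals mark the E-box CACGTG, whose first base lies 198 and 101 bases before the start. In Bmal1 (chr1:176766078-176766327, plus strand) and Nr1d2 (chr15:9954784-9955033, plus strand) they mark AGGTCA, the core of many nuclear receptor sites, 15 and 187 bases before the start. In Gclm (chr2:213031885-213032134, plus strand) they mark an antioxidant response element, TGACNNNGC on the other strand, 172 bases before the start.
Tef: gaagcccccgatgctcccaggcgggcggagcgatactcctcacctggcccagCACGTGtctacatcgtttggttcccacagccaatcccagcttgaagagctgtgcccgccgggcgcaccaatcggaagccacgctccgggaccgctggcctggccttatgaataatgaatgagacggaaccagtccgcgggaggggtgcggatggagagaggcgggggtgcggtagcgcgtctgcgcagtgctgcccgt
Klf15: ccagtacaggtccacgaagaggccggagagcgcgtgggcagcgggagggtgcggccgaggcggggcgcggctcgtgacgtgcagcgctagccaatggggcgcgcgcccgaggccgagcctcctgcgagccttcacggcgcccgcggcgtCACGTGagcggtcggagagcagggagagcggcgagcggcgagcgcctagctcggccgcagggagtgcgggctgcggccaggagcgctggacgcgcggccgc
Bmal1: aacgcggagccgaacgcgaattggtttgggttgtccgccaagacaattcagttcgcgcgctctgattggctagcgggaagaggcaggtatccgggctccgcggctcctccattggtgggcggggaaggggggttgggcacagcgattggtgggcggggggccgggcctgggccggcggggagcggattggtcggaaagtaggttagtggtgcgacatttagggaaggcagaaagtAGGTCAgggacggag
Nr1d2: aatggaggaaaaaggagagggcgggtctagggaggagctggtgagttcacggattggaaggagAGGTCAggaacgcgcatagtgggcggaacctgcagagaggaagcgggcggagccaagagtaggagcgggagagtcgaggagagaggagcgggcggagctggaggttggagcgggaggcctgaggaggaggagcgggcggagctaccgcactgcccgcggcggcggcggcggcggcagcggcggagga
Gclm: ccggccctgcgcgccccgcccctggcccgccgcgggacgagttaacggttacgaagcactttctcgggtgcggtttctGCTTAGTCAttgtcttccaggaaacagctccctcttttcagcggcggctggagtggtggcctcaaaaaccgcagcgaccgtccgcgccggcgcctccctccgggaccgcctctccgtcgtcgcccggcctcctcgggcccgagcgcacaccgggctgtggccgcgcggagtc
Of the 30 genes called at every dose, 26 had a promoter in the table. Searched on both strands, CACGTG was in 4 of the 26 (15.4%), against 7.82% of the 11734 promoters of genes on the array. Those 4 were Tef and Klf15, which rose, and Plin2 and Slc16a1, which fell and are not printed. AGGTCA was in 5 (19.2%, against 11.3%) and TGACNNNGC in 6 (23.1%, against 12.3%), and the reverse complement of AGGTCA can overlap TGACNNNGC. Both were found in either direction of change: AGGTCA in 2 higher and 3 lower genes, TGACNNNGC in 3 higher and 3 lower genes. Dbp, Nr1d1 and Per3 had no match to any of these motifs. The D-box, TTATGTAA or TTACGTAA, was in 0 of the 26, against 0.605%. A match describes letters in this window and is not a bound site.

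With limma, 825 of 14217 genes (5.80%) differed between the 15 dosed and the 6 vehicle arrays, 489 higher (3.44%) and 336 lower (2.36%) at an adjusted p below 0.05. By probe set these were 1202 of 31042 (3.87%), 691 higher (2.23%) and 511 lower (1.65%). The changes were mostly modest, with a median size of 1.32-fold among called genes and 1.06-fold over all genes, and 63 called genes reached 2-fold (36 higher, 27 lower). The median difference over all genes was -0.01, which, like the array medians, cannot show whether all genes shifted together. Of the called genes 821 had all 5 dose means on the same side of the vehicle mean. Selecting genes on the pooled mean of these same arrays favours that, so the count is not separate support for a shared change. The count of probe sets fell whichever vehicle array was left out, to 978 without replicate 6 and, by more than 1.5 times, to 798 without replicate 3. Over all 21 arrays left out in turn it ranged from 798 to 1436.

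A pooled call does not by itself show a change at every dose. When each dose was compared with the vehicle in a fit with 6 groups, 97 of the 825 genes were called at no single dose, 183 at 1 dose, 240 at 2, 227 at 3, 48 at 4 and 30 at all 5. Those 30 genes are 0.211% of all genes, 17 higher (0.120%) and 13 lower (0.0914%). In each of the 30 all 15 dosed arrays lay beyond all 6 vehicle arrays, a separation that 119 genes had in all (0.837%), 75 of them higher (0.528%) and 44 lower (0.309%). Selecting the 30 by tests on these same arrays favours that separation. It is therefore not separate support, here or where the ranges of single genes are given below. By probe set 42 were called at every dose (0.135%), 25 higher (0.0805%) and 17 lower (0.0548%), and 165 were separated (0.532%). The count of 42 depended on the 129.2 mg/kg arrays: it fell to 25, 25 and 21 without replicate 1, 2 or 3 of that group.

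**Figure D1:**
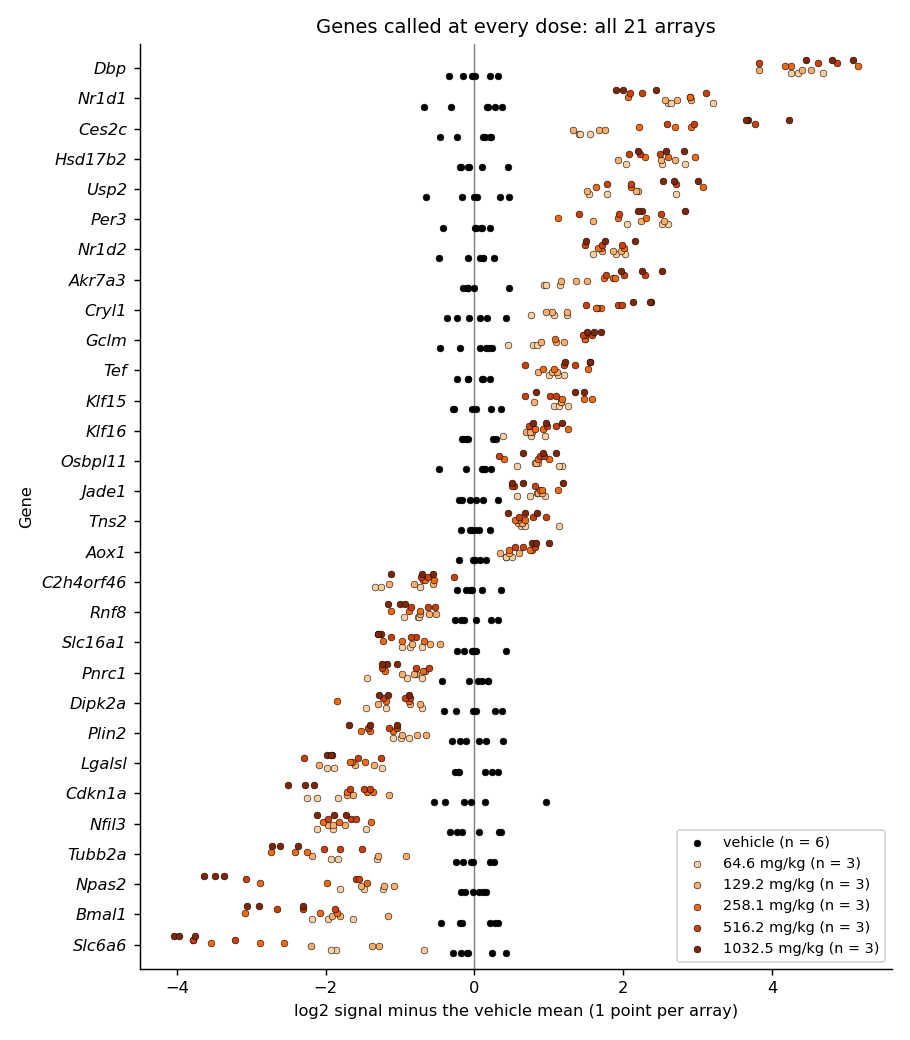
Each point is 1 array, plotted as its log2 signal minus the mean of the 6 vehicle arrays, for the 30 genes called at every dose; black points are vehicle and darker orange is a higher dose. No dosed array overlaps the vehicle arrays in any gene, and colours are mixed in genes such as Nr1d2 and Nfil3. In Ces2c and Slc6a6 the group means move further from the vehicle with each dose. Single arrays of neighbouring doses overlap in both genes, except between 129.2 and 258.1 mg/kg.

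Whether the response grew with dose was asked without the vehicle level, by the moderated F among the 5 dose means and by the slope over the 15 dosed arrays alone. Over all genes the F called 222 (1.56%) and the slope 485 (3.41%), 324 rising (2.28%) and 161 falling (1.13%); by probe set these were 317 (1.02%) and 708 (2.28%, of which 454 rising, 1.46%, and 254 falling, 0.818%). Of the 30 genes, the F called 7 (Ces2c, Akr7a3, Cryl1, Gclm, Slc6a6, Npas2 and Tubb2a) and the slope also 7, with Aox1 in place of Tubb2a. The other 22, 12 higher and 10 lower, were called by neither test, which does not show that their doses were alike; intervals given below show what difference the data allow. The 95% intervals are for the mean at 1032.5 minus the mean at 64.6 mg/kg and are not adjusted over genes.

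Among the clock repressors, Nr1d1, Nr1d2 and Per3 were higher at every dose. Nr1d1, which encodes REV-ERB alpha, read 5.77 to 6.81 (median 6.62) on the vehicle arrays and 8.35 to 9.65 (median 9.04) on the dosed arrays. The lowest dosed array was thus well above the highest vehicle array, and the pooled rise was 5.85-fold (log2 difference 2.55, SE 0.18, adjusted p = 3.19e-09). Its rise was 2.81 on the log2 scale at the lowest dose and 2.11 at the highest; the interval for that decline, -1.29 to -0.10, excluded 0, although the F among doses did not call the gene (adjusted p = 0.575).

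Nr1d2, which encodes REV-ERB beta, read 7.88 to 8.62 (median 8.46) in the vehicle arm and 9.85 to 10.52 (median 10.12) in the dosed arm. It was among the steadiest of the 30: the rise was 1.84, 1.85, 1.79, 1.73 and 1.81 on the log2 scale in order of dose (pooled 3.49-fold, SE of the log2 difference 0.10, adjusted p = 2.69e-11). The top and lowest doses differed by -0.03 (interval -0.41 to 0.34). A further Nr1d2 probe set was also called at every dose.

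Per3 encodes a period protein. It read 4.83 to 5.46 (median 5.31) in the vehicle arm, close to the dim end of the array, and 6.38 to 8.08 (median 7.50) in the dosed arm, a pooled rise of 4.40-fold (log2 difference 2.14, SE 0.19, adjusted p = 1.40e-07). The arms did not overlap, but the next brightest Per3 probe set differed by 0.08 and was not called. The other period genes moved less: Per1 rose 1.40-fold (0.48, SE 0.09, adjusted p = 0.00263), and Per2 differed by 0.22 (SE 0.07, adjusted p = 0.0713).

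The activators of the loop were lower. Bmal1 read 8.08 to 8.84 (median 8.55) on the vehicle arrays and 5.44 to 7.36 (median 6.45) on the dosed arrays, 4.55-fold lower when pooled (log2 difference -2.18, SE 0.22, adjusted p = 1.24e-06). No dosed array reached the lowest vehicle array. The fall was -1.93 at the lowest dose and -2.75 at the highest, a difference of -0.82 (interval -1.43 to -0.21) that neither the F (adjusted p = 0.249) nor the slope (adjusted p = 0.104) called.

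Npas2, which encodes an alternative partner of BMAL1, read 8.77 to 9.11 (median 8.97) in the vehicle arm and 5.31 to 7.87 (median 7.36) in the dosed arm. Its fall differed among the doses: -1.51, -1.28, -2.10, -2.07 and -3.50 in order of dose (F adjusted p = 0.00432, slope -0.48 per dose step, adjusted p = 0.0125). The pooled fall was 4.27-fold (adjusted p = 0.000787). The pooled call held with each array left out, whereas the call at every dose held in 5 of the 21 such fits and in none of those without a vehicle array.

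Of the 15 measured core clock genes, 5 were higher and 4 lower in the pooled comparison, against 3.44% and 2.36% of all genes, with a median difference of 0.22. The other members called were Cry2 (0.76, SE 0.11, adjusted p = 0.000273), Cry1 (-0.86, SE 0.17, adjusted p = 0.00518) and Clock (-0.36, SE 0.09, adjusted p = 0.0251). So the 2 cryptochrome genes, both encoding repressors, went in opposite directions. Rora (-0.25), Bhlhe40 (0.46), Bhlhe41 (0.32), Csnk1d (-0.04) and Csnk1e (-0.02) were not called.

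Dbp, the activator of D-box genes, had the largest change of all genes called in the pooled comparison. It read 5.44 to 6.10 (median 5.77) in the vehicle arm and 9.61 to 10.94 (median 10.24) in the dosed arm, a 22.4-fold rise (log2 difference 4.49, SE 0.16, adjusted p = 4.53e-15). The smallest gap between a dosed and a vehicle array was thus wider than the spread within either arm. The rise was 4.43, 4.25, 4.53, 4.44 and 4.78 in order of dose, and the top dose exceeded the lowest by 0.36 (interval -0.20 to 0.92; F adjusted p = 0.748).

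Tef, a relative of Dbp, went from 8.25 to 8.69 (median 8.48) in the vehicle arm to 9.16 to 10.03 (median 9.60) in the dosed arm, a rise of 2.23-fold (1.16, SE 0.11, adjusted p = 4.14e-07). Hlf, the remaining family member, rose by 0.72 (SE 0.18, adjusted p = 0.0217) without being called at every dose. Nfil3, the repressor of the same sites, read 10.00 to 10.68 (median 10.27) in the vehicle arm and 8.21 to 8.93 (median 8.44) in the dosed arm. It fell 3.53-fold (log2 difference -1.82, SE 0.11, adjusted p = 1.34e-10), with dose differences from -1.74 to -1.91 and a top minus lowest difference of -0.09 (interval -0.50 to 0.32).

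Usp2 and Hsd17b2 are rhythmic genes in liver. Usp2, which encodes a deubiquitinase, read 6.24 to 7.35 (median 6.91) in the vehicle arm and 8.41 to 9.97 (median 9.06) in the dosed arm, 4.71-fold higher (2.24, SE 0.22, adjusted p = 9.08e-07), and a further Usp2 probe set was also called at every dose. Hsd17b2, whose enzyme oxidises oestradiol and testosterone to their less active ketones, read 10.37 to 11.02 (median 10.48) and 12.50 to 13.53 (median 13.08), 5.47-fold higher (2.45, SE 0.13, adjusted p = 2.20e-11). Neither pair of ranges overlapped. Hsd17b2 moved little from dose to dose (2.27 to 2.62, top minus lowest 0.06, interval -0.41 to 0.54), whereas Usp2 was 0.74 higher at the top dose than at the lowest (interval 0.02 to 1.46; F adjusted p = 0.617).

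Of the 15 measured clock output genes, 6 were higher (7 without vehicle replicate 6) and 2 lower, against 3.44% and 2.36% of all genes, with a median difference of 0.70. This list, like that of the core clock, was chosen with earlier results of these data known, so these counts are not independent of them. Noct, a rhythmic gene with a nuclease-like domain, rose 3.14-fold when pooled (1.65, SE 0.39, adjusted p = 0.0155), but its rise grew from 0.77 at the lowest dose to 2.78 at the highest (slope adjusted p = 0.0409). Ppard, a nuclear receptor gene, fell by 0.72 (SE 0.10, adjusted p = 0.000170). The remaining members, which included Por (0.70, adjusted p = 0.114) and Alas1 (0.75, adjusted p = 0.160), were not called.

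**Figure D2:**
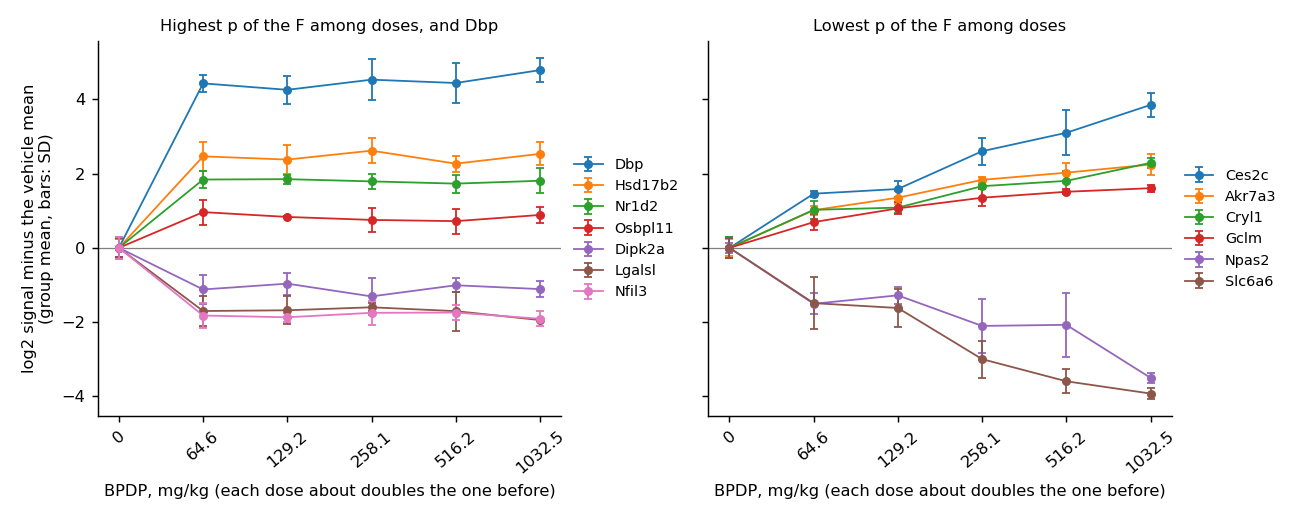
Group means minus the vehicle mean (points; bars are the SD, n = 6 for the vehicle and n = 3 per dose) against BPDP dose, for genes called at every dose with the highest p of the F among doses plus Dbp (left) and with the lowest p (right). On the left, Nr1d2 is at 1.84 and 1.81 at the lowest and top doses. On the right, Ces2c climbs from 1.46 to 3.85 and Slc6a6 goes from -1.49 to -3.92. Apart from Dbp the genes were chosen by that p, so flat or graded shapes follow from the choice. A high p does not show that the doses were alike.

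Other genes called at every dose without a called dose trend came from several functions. Cdkn1a, the gene of p21, a brake on the cell cycle, read 9.56 to 11.06 (median 10.01) in the vehicle arm and 7.59 to 8.95 (median 8.39) in the dosed arm, a 3.43-fold fall (-1.78, SE 0.19, adjusted p = 4.42e-06). Lgalsl, a galectin-like gene, read 9.66 to 10.23 (median 9.89) and 7.63 to 8.68 (median 8.24), a 3.31-fold fall (-1.73, SE 0.13, adjusted p = 1.85e-08) found with a further probe set as well. For both genes every dosed array was below every vehicle array. Cdkn1a was at -2.07 at 64.6 and -2.32 at 1032.5 mg/kg and between -1.50 and -1.52 at the doses in between, and the F among doses did not call it (adjusted p = 0.226).

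Plin2, which encodes a coat protein of lipid droplets, read 12.72 to 13.40 (median 13.00) in the vehicle arm and 11.33 to 12.36 (median 11.92) in the dosed arm, 2.21-fold lower (-1.14, SE 0.13, adjusted p = 5.57e-06). Slc16a1, the monocarboxylate transporter gene for lactate and ketone bodies, read 11.43 to 12.09 (median 11.64) and 10.38 to 11.21 (median 10.81), 1.90-fold lower (-0.93, SE 0.12, adjusted p = 2.79e-05), but its next brightest probe set differed by -0.06 and was not called. Plin2 was not called at every dose without any 1 of the 129.2 mg/kg arrays.

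Smaller falls called at every dose were in Dipk2a, Pnrc1, Rnf8 and C2h4orf46. They lay between 1.72-fold (C2h4orf46) and 2.15-fold (Dipk2a), each with an adjusted p of at most 0.000567. Pnrc1 encodes a coactivator of nuclear receptors and Rnf8 a ubiquitin ligase of the DNA damage response. The next brightest probe sets of Dipk2a (-0.01) and Pnrc1 (-0.09) were not called.

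The smaller rises were in Klf15 (2.22-fold), Klf16 (1.82-fold), Osbpl11 (1.78-fold), Jade1 (1.74-fold) and Tns2 (1.62-fold). Klf15 encodes a zinc finger factor that controls amino acid and glucose metabolism. It read 8.84 to 9.48 (median 9.12) in the vehicle arm and 9.80 to 10.71 (median 10.29) in the dosed arm (1.15, SE 0.12, adjusted p = 1.57e-06), with no overlap and a top minus lowest difference of 0.06 (interval -0.31 to 0.44). Osbpl11 encodes a lipid carrier, Jade1 a subunit of a histone acetyltransferase complex and Tns2 a tensin of focal adhesions. The next brightest Jade1 probe set differed by 0.31 and was not called.

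Other genes of the 30 differed among the doses. Ces2c, a carboxylesterase gene whose product hydrolyses esters, read 8.52 to 9.21 (median 9.12) in the vehicle arm and 10.31 to 13.21 (median 11.57) in the dosed arm. The rise was 1.46, 1.59, 2.60, 3.10 and 3.85 in order of dose (slope 0.63 per dose step, adjusted p = 2.41e-05; F adjusted p = 8.22e-05). The pooled rise of 5.73-fold (SE of the log2 difference 0.37, adjusted p = 0.000269) is therefore an average over unlike doses, and the top dose exceeded the lowest by 2.39 (interval 1.87 to 2.90).

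Akr7a3, an aldo-keto reductase gene that detoxifies dialdehydes, read 11.20 to 11.81 (median 11.26) and 12.29 to 13.87 (median 13.12), with rises from 1.01 at the lowest to 2.24 at the highest dose (pooled 3.23-fold, adjusted p = 9.96e-06; slope adjusted p = 7.15e-05). Cryl1, whose enzyme acts on gulonate, read 8.37 to 9.15 (median 8.74) and 9.49 to 11.11 (median 10.37), with rises from 1.02 to 2.29 (pooled 2.97-fold, adjusted p = 5.59e-05; slope adjusted p = 7.15e-05). In order of dose the rises of Akr7a3 were 1.01, 1.35, 1.83, 2.02 and 2.24. Those of Cryl1 were 1.02, 1.08, 1.66, 1.80 and 2.29. A step between neighbouring doses was not tested.

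Gclm, the modifier subunit of the enzyme that starts glutathione synthesis, read 11.22 to 12.47 (median 12.23) in the dosed arm. The vehicle arm had a lowest array at 10.31 and a median of 10.88, and all 6 of its arrays were below the lowest dosed array. Its rise went from 0.69 to 1.60 over the doses (pooled 2.37-fold, adjusted p = 2.78e-05; slope adjusted p = 0.000384). Its call at every dose was lost without vehicle replicate 5 or without replicate 2 or 3 of the 64.6 mg/kg group. Aox1, an aldehyde oxidase gene, had the smallest rise of the 30, 1.54-fold (0.62, SE 0.08, adjusted p = 7.34e-05), from 0.45 at the lowest to 0.87 at the highest dose (slope adjusted p = 0.0283).

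The deepest fall of all genes called in the pooled comparison was in Slc6a6, the gene of the taurine transporter. It read 9.77 to 10.48 (median 9.97) in the vehicle arm and 6.02 to 9.38 (median 7.17) in the dosed arm, 6.61-fold lower when pooled (-2.72, SE 0.42, adjusted p = 0.000397). The 3 arrays at 64.6 mg/kg were at 8.20, 8.13 and 9.38, and the 3 at 1032.5 mg/kg at 6.30, 6.02 and 6.09, so the dosed arm itself was widely spread. The fall deepened by 2.43 from the lowest to the top dose (interval -3.06 to -1.80; slope adjusted p = 0.000128), and its call at every dose was lost without replicate 1 or 2 of the 64.6 mg/kg group or replicate 3 of the 129.2 mg/kg group.

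Tubb2a, a beta-tubulin gene, read 12.26 to 12.77 (median 12.47) and 9.77 to 11.58 (median 10.48), 3.99-fold lower (SE of the log2 difference 0.21, adjusted p = 4.08e-06). Its falls had no single order over the doses: -1.69, -1.47, -2.47, -1.78 and -2.57. The F among doses called it (adjusted p = 0.0380) and the slope did not (adjusted p = 0.186). Of 9 measured tubulin genes 3 were lower in the pooled comparison, against 2.36% of all genes, and none was higher. Beside Tubb2a these were Tuba4a (-0.71, adjusted p = 0.0113) and Tubb4b (-0.43, adjusted p = 0.0135), and the median of the list was -0.23.

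The calls at every dose differed in how far they rested on single arrays. Of the 30 genes 16 were called at every dose in all 21 fits that left out 1 array, and 14 also in the 9 other settings tried: Dbp, Nr1d1, Nr1d2, Per3, Tef, Nfil3, Usp2, Hsd17b2, Klf15, Lgalsl, Tubb2a, Ces2c, Akr7a3 and Cryl1. Bmal1 and Cdkn1a also held in all 21. The least steady were Npas2 (5 of 21), C2h4orf46 and Dipk2a (7 each), Osbpl11 (8) and Aox1 (10). Tns2, like Plin2, was lost without any 1 of the 129.2 mg/kg arrays, and Jade1 without replicate 2 or 3 at 64.6 or replicate 1 at 516.2 mg/kg. The pooled call of each of the 30 held in all 21.

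**Figure D3:**
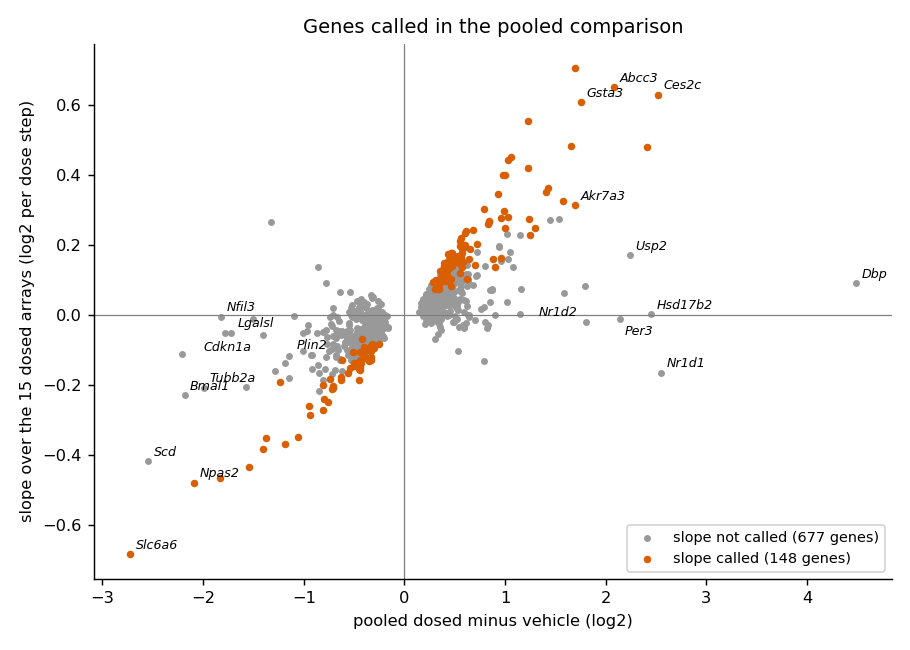
Each point is 1 of the 825 genes called in the pooled comparison; the horizontal axis is the log2 difference of the dosed from the vehicle mean and the vertical axis is the slope per dose step over the 15 dosed arrays. In orange are the 148 genes with a called slope; Dbp (4.49), Hsd17b2 (2.45), Nr1d2 (1.80) and Nfil3 (-1.82) lie far from 0 on the horizontal axis and near 0 on the vertical one.

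Beyond the 30, a further group separated all 15 dosed from all 6 vehicle arrays in the pooled comparison but missed the threshold at 1 or more doses. Of the 119 separated genes 118 were called when pooled. The leading rises were in Nr0b2, Psat1, Ehhadh, Sbspon and Gstt3. Nr0b2 encodes SHP, the repressor of bile acid synthesis; it read 7.73 to 9.35 (median 8.62) in the vehicle arm and 9.53 to 10.92 (median 10.17) in the dosed arm, 2.99-fold higher (1.58, SE 0.22, adjusted p = 0.000111) with no called slope (adjusted p = 0.734). Its target Cyp7a1, the rate-limiting enzyme of bile acid synthesis, differed by 0.82 (SE 0.30, adjusted p = 0.139).

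Psat1, of serine synthesis, rose 2.89-fold (1.53, SE 0.26, adjusted p = 0.000928). Ehhadh, the peroxisomal bifunctional enzyme of fatty acid oxidation, rose 2.64-fold (1.40, SE 0.23, adjusted p = 0.000788), with dose differences from 0.72 to 1.95 and a called slope (adjusted p = 0.00134). Sbspon, a gene of the extracellular matrix, rose 2.46-fold and the glutathione transferase gene Gstt3 2.36-fold, and both also had a called slope (adjusted p = 0.00280 and 0.00187).

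The leading separated falls were in Apoa4, Pdk4, Oat, Chka and Dapk1. Apoa4, an apolipoprotein gene, read 12.58 to 12.85 (median 12.66) in the vehicle arm and 9.95 to 12.19 (median 11.28) in the dosed arm, 2.65-fold lower (-1.40, SE 0.25, adjusted p = 0.00199), and the fall grew from -0.73 to -2.10 (slope adjusted p = 0.00225). Oat, ornithine aminotransferase, fell 2.60-fold (-1.38, SE 0.23, adjusted p = 0.00104), also with a called slope (adjusted p = 0.000438). Pdk4, whose kinase holds pyruvate dehydrogenase inactive, read 9.51 to 10.77 (median 10.22) and 8.03 to 9.46 (median 8.73), 2.64-fold lower (-1.40, SE 0.22, adjusted p = 0.000588) without a called slope (adjusted p = 0.798).

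Chka, choline kinase alpha, fell 2.43-fold (-1.28, SE 0.21, adjusted p = 0.000883) and Dapk1, a calmodulin-dependent death kinase gene, 2.27-fold (-1.18, SE 0.18, adjusted p = 0.000259). Irf1, a transcription factor of the interferon response, fell 1.96-fold (-0.97, SE 0.13, adjusted p = 8.28e-05), by -0.84 to -1.14 at the single doses. Zfp354a, a zinc finger gene, rose 5.33-fold (2.41, SE 0.39, adjusted p = 0.000683) without full separation, at 8.03 to 9.41 (median 8.44) in the vehicle arm and 9.08 to 12.36 (median 10.78) in the dosed arm.

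Pooling also called changes too small for any dose of 3 arrays. These 97 genes, 53 higher and 44 lower, had a median size of 1.22-fold. Ldha, which encodes the A subunit of lactate dehydrogenase, was lower by -0.32, -0.27, -0.26, -0.28 and -0.32 in order of dose (pooled -0.29, SE 0.06, adjusted p = 0.00712), and Apmap by -0.27 to -0.29 (pooled -0.28, SE 0.06, adjusted p = 0.00649). For both the top and lowest doses differed by less than 0.01, with intervals of -0.23 to 0.23 and -0.22 to 0.23. Among the rises were Mt1, a metallothionein gene (1.51-fold, adjusted p = 0.00640), and Edc3, of mRNA decapping (1.26-fold, adjusted p = 0.0120). The vehicle and dosed ranges of these 4 genes overlapped, and the next brightest Edc3 probe set was not called.

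The reverse also held: 149 genes were called by the F among doses and not when pooled, since differences between doses stay in the spread of the pooled test. Acot1, an acyl-CoA thioesterase gene, is an example. Its vehicle arrays read 3.39 to 3.70, below the lower quartile of the arrays, and its dosed arrays 3.23 to 11.46, with all 6 arrays of the 2 lowest doses at or below 3.84 (pooled adjusted p = 0.129). Cyp1a1 (0.79, adjusted p = 0.265), Alas1 (0.75, adjusted p = 0.160) and Nqo1 (0.35, adjusted p = 0.327) were called by the F (adjusted p = 0.000901, 0.0320 and 0.0221) and not when pooled. Cdkn3, a cell cycle phosphatase gene, was the 1 gene called in opposite directions at different doses, with -2.04 at 64.6 and 2.04 at 258.1 mg/kg and a pooled difference of 0.24 (adjusted p = 0.923).

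The gene lists were read by their counts and medians beside the shares of all genes, 3.44% higher and 2.36% lower. Conjugation and antioxidant lists had many rises. Of 19 glutathione transferases, which attach glutathione to electrophiles, 12 were higher (10 without vehicle replicate 6) and 0 lower, with a median difference of 0.35. Gsta3 rose 3.38-fold (1.76, SE 0.36, adjusted p = 0.00556) from 0.35 at the lowest dose to 2.76 at the highest, and its arms overlapped; Gstm1 rose by 0.43 (SE 0.08, adjusted p = 0.000196). None of the 12 was called at every dose.

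A rising slope was called for 7 of 20 Nrf2 targets, against 2.28% of all genes. Of the 20, 8 were higher when pooled (6 without vehicle replicate 6) and 0 lower (median 0.46). Beside Akr7a3 and Gclm these included Abcc3, a conjugate exporter, at 4.23-fold (2.08, SE 0.40, adjusted p = 0.00322) and Abcc2, the exporter into bile, at 1.43-fold (0.52, SE 0.09, adjusted p = 0.000883). The 2 exporters differed in shape: Abcc3 went from 0.57 to 3.17 over the doses, while Abcc2 stood between 0.42 and 0.58 (top minus lowest 0.06, interval -0.26 to 0.38). Of 18 listed CAR and PXR targets 15 were measured, since no probe set named Cyp2b1, Cyp2b2 or Aldh1a7 alone. Of the 15, 6 were higher (7 without vehicle replicate 6) and 0 lower (median 0.25). Those higher included Aldh1a1 (2.04-fold, adjusted p = 0.00160), Ugt2b1, a glucuronosyltransferase (1.87-fold, adjusted p = 7.24e-05), and Ephx1, epoxide hydrolase (1.65-fold, adjusted p = 0.000185). The lists share members, so their counts are not separate: Abcc3 and Ephx1 are in both the Nrf2 and the CAR and PXR list. Ugt2b1 is also in the glucuronidation list, and Trib3 in both the Nrf2 and the ATF4 list.

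Of 17 genes of glucuronidation and sulfation 4 were higher and 1 lower (median 0.14). Ugp2, which makes the sugar donor for glucuronides and glycogen, rose at a near constant level, 0.45 to 0.64 over the doses (1.43-fold, adjusted p = 0.000121). Of 9 genes of the aryl hydrocarbon receptor axis 0 were higher and 1 lower, Cyp1a2, which fell 1.67-fold (-0.74, SE 0.13, adjusted p = 0.00142). Of 22 genes of the ATF4 amino acid response 5 were higher and 0 lower (median 0.23), among them Asns (2.69-fold, adjusted p = 0.00632), Phgdh (2.22-fold, adjusted p = 0.00351) and Trib3 (2.02-fold, adjusted p = 0.00421).

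**Figure D4:**
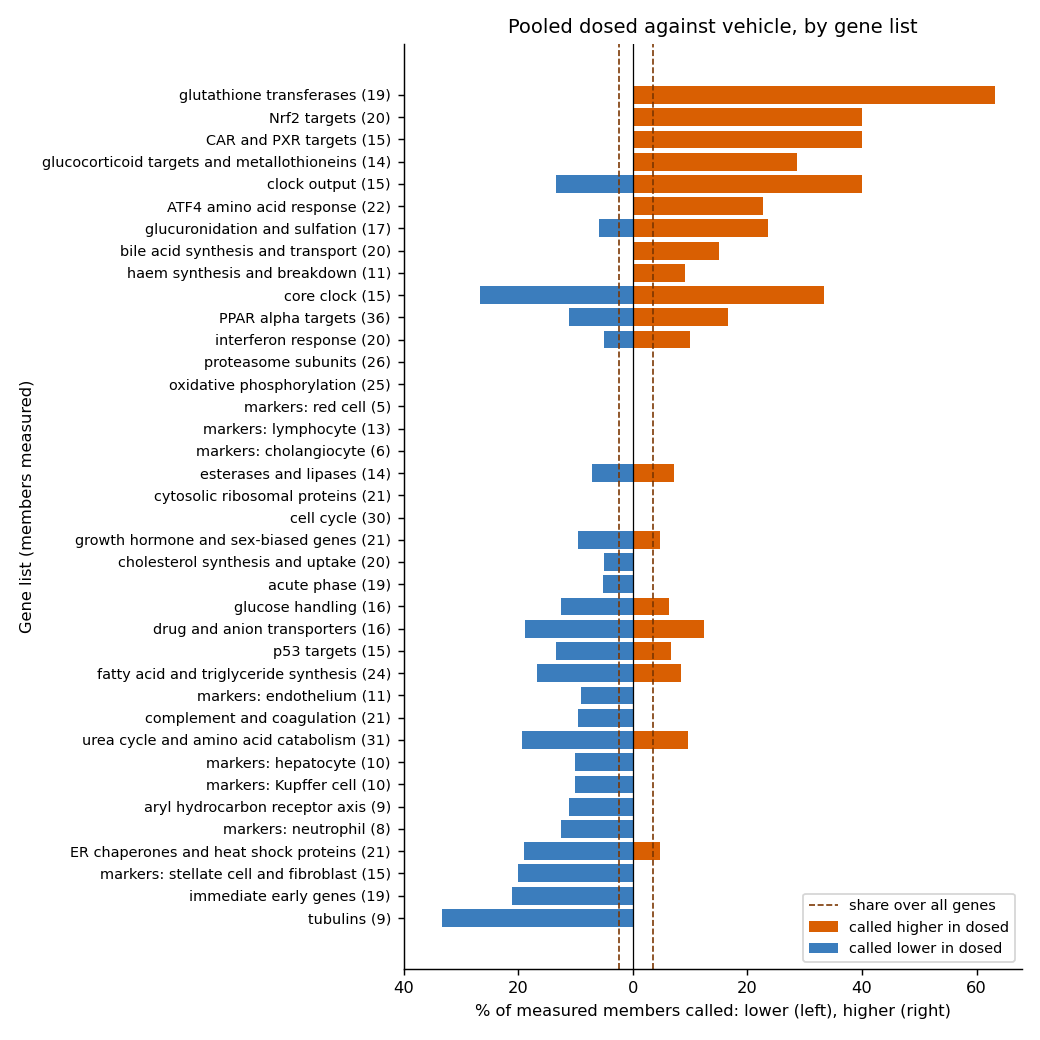
Share of the measured members of each list (number in brackets) called higher (orange, to the right) or lower (blue, to the left) in the pooled comparison; dashed lines are the shares of all genes, 3.44% and 2.36%. Glutathione transferases reach 63.2% higher, and core clock genes have bars on both sides, 33.3% higher and 26.7% lower.

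Lipid lists held calls in both directions. Of 36 PPAR alpha targets 6 were higher (5 without vehicle replicate 6) and 4 lower (median 0.24). A rising slope was called for 16 of the 36, against 2.28% of all genes. Cyp4a1, a fatty acid omega-hydroxylase, rose 1.94-fold (0.96, SE 0.22, adjusted p = 0.0115), while Angptl4, which inhibits lipoprotein lipase, fell 2.50-fold (-1.32, SE 0.28, adjusted p = 0.00694) and was lowest at the lowest dose (-2.11) and least changed at the top (-0.66). Of 24 genes of fatty acid and triglyceride synthesis 2 were higher (1 without vehicle replicate 6) and 4 lower (median -0.12). Scd, the stearoyl-CoA desaturase, fell 5.84-fold (-2.55, SE 0.43, adjusted p = 0.000947), but its arms overlapped, with 9.76 to 12.26 (median 11.10) in the vehicle arm and 7.19 to 10.84 (median 8.53) in the dosed arm. Lpin2, a phosphatidate phosphatase gene, rose 1.80-fold (0.85, SE 0.10, adjusted p = 2.64e-05), and its next brightest probe set differed by 0.03.

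Of 19 immediate early genes 0 were higher and 4 lower (median -0.07): Egr1 (3.55-fold, adjusted p = 0.0120), Dusp6 (2.01-fold, adjusted p = 0.00627), Ier5 (1.63-fold, adjusted p = 0.000285) and Ier2 (1.58-fold, adjusted p = 0.00681). Egr1 was widely spread in both arms, at 7.77 to 10.38 and 5.85 to 9.09. Ier5 was the tightest among dosed arrays, at 7.77 to 8.27, below all vehicle arrays (8.35 to 9.46), though its next brightest probe set was not called. Of 14 glucocorticoid targets and metallothioneins 4 were higher and 0 lower (median 0.34), among them Klf9 (1.80-fold, adjusted p = 0.000186, next brightest probe set not called) and Mt2A (3.46-fold, adjusted p = 0.000814).

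Mt2A, a metallothionein gene, differed between the arms in spread as well as level. Its 6 vehicle arrays ran from 10.43 to 14.02 (SD 1.27) and its 15 dosed arrays from 13.65 to 14.40 (SD 0.22). The highest vehicle array, replicate 6, lay inside the dosed range. The difference in spread was not tested.

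Other lists had fewer calls. Of 21 ER chaperones and heat shock proteins 1 was higher and 4 lower (median -0.16); Herpud1, of ER protein degradation, rose 1.40-fold (adjusted p = 0.00117). Of 31 urea cycle and amino acid breakdown genes 3 were higher and 6 lower (median -0.01). Of 16 drug and anion transporters 2 were higher and 3 lower, and beside Slc6a6 and Slc16a1 the phosphate transporter gene Slc34a2 fell 2.98-fold (-1.57, SE 0.23, adjusted p = 0.000186). The members of this list were chosen with earlier results of these data known, so its count of lower genes is not independent of them. Of 21 growth hormone and sex-biased genes 1 was higher and 2 lower: Cyp2c12 rose 1.64-fold (adjusted p = 0.00349), while Socs2 fell 2.35-fold (adjusted p = 0.00630) and Igfbp3 1.74-fold (adjusted p = 0.00869, next brightest probe set not called). Without vehicle replicate 6, the counts of lower genes were 2 for the ER list and 3 for the urea cycle list.

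Of 20 bile acid genes 3 were higher and 0 lower, of 20 interferon response genes 2 and 1, of 16 genes of glucose handling 1 and 2, of 15 p53 targets 1 and 2, of 14 esterases and lipases 1 and 1, of 11 haem genes 1 and 0, of 20 cholesterol genes 0 and 1, of 19 acute phase genes 0 and 1 and of 21 complement and coagulation genes 0 and 2. Several of these shares are near those of all genes. Without vehicle replicate 6 there were 1 and 1 for the interferon, 1 and 3 for the p53, 0 and 0 for the acute phase and 0 and 1 for the complement list. No member was called when pooled among 30 cell cycle genes, 26 proteasome subunits, 25 subunits of oxidative phosphorylation and 21 cytosolic ribosomal proteins. For the cell cycle genes this sat beside differences between doses, since the F called 7 of the 30, against 1.56% of all genes.

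Markers of other liver cells were lower in part. In whole liver, fewer cells of a type and less RNA per cell cannot be told apart. Of 15 stellate cell and fibroblast markers 3 were lower and 0 higher (median -0.29), with Pdgfrb at -0.68 (SE 0.12, adjusted p = 0.00225, next brightest probe set not called) and Pdgfra at -0.54 (SE 0.11, adjusted p = 0.00575); the mean of the list ran from 7.17 to 7.55 over vehicle arrays and from 6.63 to 7.42 over dosed arrays. All 10 measured Kupffer cell markers had a difference below 0, with a median of -0.35 against -0.01 over all genes. They were read on the same arrays and are not separate observations. The mean of their list ran from 9.77 to 10.27 over vehicle arrays and from 9.29 to 10.26 over dosed arrays. These ranges overlapped. Of the 10, 1 was called, Cd163 (-0.47, adjusted p = 0.0499). Its call was lost in 16 of 21 fits without 1 array, up to an adjusted p of 0.134 without vehicle replicate 2.

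Of 11 endothelial markers 1 was lower (median -0.21), Stab1 (-0.41, adjusted p = 0.0183, and 0.0649 without vehicle replicate 2), and of 8 neutrophil markers 1 was lower, Mmp8 (-0.26, adjusted p = 0.0211), which is dim and lost its call without vehicle replicate 1, 2 or 3 (adjusted p = 0.0536, 0.0729 and 0.0734). The mean of the neutrophil list ran from 5.20 to 5.84 over vehicle arrays and from 4.99 to 5.20 over dosed arrays, and 4 of its 8 members were dim. Of 10 hepatocyte markers 1 was lower (Apoa2, -0.16, adjusted p = 0.0262, a call lost without vehicle replicate 1, 3, 4 or 6), and none of 13 lymphocyte, 6 cholangiocyte and 5 red cell markers was called. Cdkn1a, Plin2 and the immediate early genes are expressed in several of these cell types, and the part of cell makeup in their falls was not tested.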

How the data were processed

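Rat liver RNA was measured on 21 Affymetrix rat expression arrays from 100 ng of total RNA per sample. The authors deposited a log2 signal for each probe set on each array; the submitters' processing notes name RMA, and its software and settings were not given in the sources used here. Values were used as deposited. After 57 array controls were left out, 31042 probe sets were tested: 20826 map to 1 gene by the platform's annotation, 436 to several and 9780 to none. Symbols were updated through RefSeq GRCr8 (20758 by Entrez identifier, 2 by accession, 66 kept), and the brightest probe set stood for each of 14217 genes. A gene is dim where a group's mean lies below the lower quartile of the arrays (median over arrays 5.04).

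limma 3.58.1 in R 4.3.3 (lmFit, eBayes) compared the 15 dosed with the 6 vehicle arrays as 2 arms. A fit with 6 groups gave each dose against the vehicle and the F among doses, and a slope on the dose step (1 to 5) used the 15 dosed arrays alone. P-values are two-sided, with Benjamini-Hochberg adjustment across the 31042 probe sets and a threshold of 0.05; "rose", "fell", "higher" and "lower" of a gene follow that threshold, and the SE is limma's. The methods were tested on simulated data. Arrays have no read depth; their number limits precision.

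The genes named are the leading pooled rises and falls with full separation of the arms (15 of each at most), all genes called at every dose, the leading called members of each list (up to 4), index genes, and the 5 rises and 5 falls with the lowest p among genes called when pooled and at no dose; Cry2, Clock, Hlf, Ppard, Gstm1, the uncalled core clock genes and Por were added after their values were seen. The members and gene lists were chosen with earlier results of these data known. Alternatives covered scaling, filters, variance, array weights, probe set choice, an RNA integrity covariate, the replicate number as a block and each array or dose left out; lists without vehicle replicate 6, which stood apart from its group, were added after seeing the data.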

Additional observations from a re-analysis of the deposited data

Results flagged for a closer look

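In the vehicle group, the gap between the extreme array and its neighbour was set against the range of the 6 arrays by Dixon's test for each of the 139 named genes, where a ratio above 0.625 marks an outlying array. Chance marks about 1 group in 20, and 7 were marked here. Vehicle replicate 6 was the outlying array for Rprm, a p53 target (ratio 0.721; 7.07 against 8.41 to 8.93), and for Ier5 (0.653; 9.46 against 8.35 to 8.73). Vehicle replicate 2 was outlying for the endothelial marker Stab1 (0.8; 8.49 against 7.79 to 7.93) and for Per3 (0.688; 4.83 against 5.26 to 5.46). Vehicle replicate 4 was outlying for Akr7a3 (0.768; 11.81 against 11.20 to 11.34), replicate 3 for the complement protease gene Masp1 (0.713; 10.56 against 10.86 to 10.98) and replicate 1 for the globin gene Hbb (0.637; 12.34 against 13.22 to 13.72). In Per3, Akr7a3 and Ier5 the outlying array did not reach the dosed range. Rprm was called lower when pooled (-1.55, adjusted p = 0.0186) and lost that call without vehicle replicate 1, 3 or 5 (adjusted p = 0.0528, 0.0577 and 0.0530), and Hbb was not called (-0.89, adjusted p = 0.183).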

How the results depend on the processing

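The pooled count of 1202 probe sets was 1878 with array weights, 274 where a 1.5-fold change was also required, 1939 without the 64.6 mg/kg arrays, 795 without 516.2, 770 without 1032.5 and 186 with the 2 lowest doses alone; leaving out single arrays gave 798 (vehicle replicate 3) to 1436. The every-dose count of 42 was 70 with array weights and 165 when full separation of the arms replaced the tests, and 21 to 43 without single arrays. The count among doses of 317 was 2442 with array weights, 708 by slope, 64 without the 64.6 and 114 without the 1032.5 mg/kg arrays, and 180 to 441 without single arrays (180 and 183 without replicate 3 or 2 at 64.6, 181 without replicate 2 at 1032.5 mg/kg). With the replicate block the pooled count was 231 and the every-dose count 22; replicates 4 to 6 of the vehicle have no dosed partner and do not enter that contrast. Whether the numbers pair samples was not tested. Over 45 same-number pairs the median correlation of deviations from the group means was 0.005, the highest 0.394, and 13 exceeded 0.1. Over 135 different-number pairs the median was -0.008, the highest 0.302, and 37 exceeded 0.1. Of 118 named genes called when pooled, 117 were still called with cyclic loess, 111 with array medians subtracted, 93 in every fit without 1 array, 54 with the 2 lowest doses alone and 53 with the replicate block; the next brightest probe set kept the call of 16 of 36 and reversed the sign of Masp1 (0.14, adjusted p = 0.537). Without vehicle replicate 6 the counts of 23 of 38 lists were the same, core clock had 5 higher and 3 lower, and ER chaperones 1 and 2. The causes were not tested.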
